A study of Mus musculus with 9 samples.

Results

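The genes described here encode the proteins of the mitochondrial ribosome, taken as all symbols that begin with Mrpl or Mrps followed by a number. A total of 71 such genes, 43 with a large subunit symbol and 28 with a small subunit symbol, were measured among 22180 genes. The genes were chosen by symbol, and their probe sets were selected on the highest mean over the 9 arrays, a value that enters the level of a member but is no difference between gates. A RefSeq gene table holds 78 protein-coding genes of this pattern; the remaining 7 (Mrpl30, Mrpl33, Mrpl41, Mrpl43, Mrpl44, Mrpl53 and Mrps6) lie only on probe sets shared with other genes and were not analysed here. The arrays measured myeloid cells from a plantar hindpaw wound, taken 24 h after incision from C57BL/6J mice that were male, 8 weeks of age and carried no engineered allele named in the labels. All groups were gated as positive for CD11b, the myeloid integrin, and negative for the neutrophil protein Ly6G. Within that gate the cells were divided into Ly6C low, Ly6C medium and Ly6C high gates with 3 arrays each, and the cells of all gates were obtained on a single day. Newly arrived monocytes carry much surface Ly6C, whereas resident macrophages and dendritic cells often carry little.

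Mitochondria hold a ribosome of their own, which makes the few proteins encoded by mitochondrial DNA, nearly all of them core subunits of the respiratory chain. Its RNAs are transcribed from mitochondrial DNA, but its proteins are encoded in the nucleus, made in the cytosol and imported, so both genomes are needed. The small subunit decodes the messenger RNA and the large subunit joins the amino acids; many of their proteins descend from bacterial ribosomal proteins and others exist only in mitochondria. Macrophages are known to differ in how far they rely on mitochondrial respiration, with inflammatory activation shifting them towards glycolysis.

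Values are log2 intensities as the authors deposited them, after amplification of the RNA. The median of all probe sets was 3.93 to 4.10 per array, and precision is limited by the number of arrays. The labels do not say whether the arrays of a gate came from separate animals; the p-values therefore measure only how far these samples spread, and that spread may be technical. Ly6c2, which encodes a Ly6C protein, averaged 8.33 in Ly6C low, 11.22 in medium and 12.27 in high cells, in the order of the gates. Itgam, the gene of CD11b, averaged 10.58, 10.90 and 11.02 in the same order, Ptprc, the pan-leukocyte gene, 10.12, 10.35 and 10.51, and Ly6g 3.58, 3.06 and 3.02. Adgre1, the gene of F4/80, averaged 10.28, 10.10 and 9.84 and Csf1r, the receptor that macrophages need for survival, 10.82, 10.51 and 10.57. Of 7 classical monocyte markers, 0 were higher and 5 lower in low than in high cells, and of 10 tissue macrophage markers 9 were higher and 0 lower. Of 9 dendritic cell markers, 5 were higher and 0 lower. Of 11 fibroblast markers, 0 were higher and 9 lower in low than in high cells. The linear intensities of those fibroblast markers summed to 413 to 460 in low arrays, 788 to 824 in medium arrays and 3144 to 7088 in high arrays. An array gives no true 0: 1 of the 11 fibroblast markers averaged at least 6 on the log2 scale in low cells, 4 in medium cells and 7 in high cells.

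Most mitochondrial ribosomal protein genes had a higher mean in Ly6C low than in Ly6C high cells, but 4 passed the test: Mrps27, Mrpl11, Mrpl23 and Mrpl17 were higher in low cells, by 0.88 to 1.10 on the log2 scale. Limma called 0 members lower in that comparison at the adjusted threshold and 0 at an unadjusted p under 0.05, against 2.32% and 7.46% of all genes. The 4 called members are 5.63% of the 71, against 3.35% of all genes called higher and 5.67% called in either direction (limma, Benjamini-Hochberg over all genes at a threshold of 0.05). The difference was positive for 64 of the 71 members (90.1%), namely 36 of 43 large subunit and 28 of 28 small subunit genes, against 52.7% of all genes. The small subunit count includes Mrps36, a dim probe set with a difference of 0.0041. The median difference was 0.45 over all members, 0.40 over large subunit and 0.47 over small subunit genes, against 0.012 over all genes tested and 0.011 over the 6306 genes with 3 or more arrays at log2 6 or above. Of the members, 46 of 71 reached that level, and none was left out for being dim. Among those 46, the median difference was 0.521 over 30 large subunit and 0.453 over 16 small subunit genes, the reverse order. At an unadjusted p under 0.05, 26 members (36.6%) were higher in low cells, against 10.4% of all genes. The low arrays all lay above the high arrays for 26 members (36.6%) against 11.4% of all genes, and all below for 1 member (1.41%), Mrpl52, against 8.76%. Members were brighter than most genes, so shares among the 6306 genes at log2 6 or above are given too. At an unadjusted p under 0.05, 41.3% of the 46 members there were higher, against 19.7%. The low arrays lay above the high arrays for 45.7%, against 20.7%. In the same fit over all genes, 6.52% of these members were called higher, against 8.07%. A gene could reach log2 6 on 3 arrays through its low arrays alone. This filter can therefore favour genes that are high in low cells, members and others alike. In these sorted populations, fewer cells of a type and less RNA per cell cannot be told apart.

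**Figure D1:**
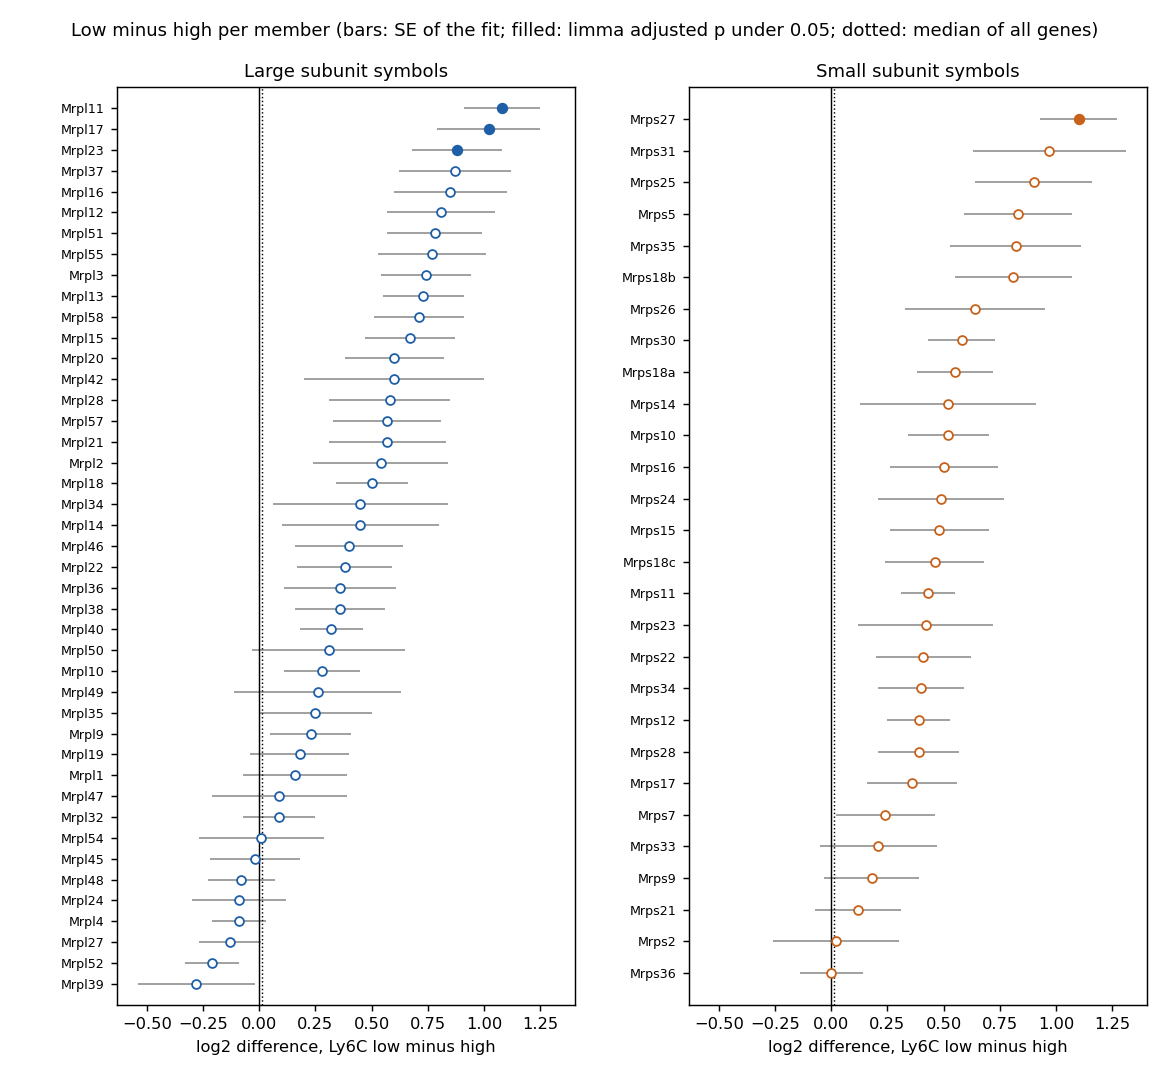
Log2 difference, Ly6C low minus Ly6C high, for each of the 43 large and 28 small subunit symbols, with bars of 1 SE of the limma fit; filled points passed the adjusted threshold of 0.05 and the dotted line is the median of all genes (0.012). The points of 64 members lie right of 0, and 4 of them are filled.

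Mrps27, a pentatricopeptide repeat protein that belongs to the small subunit and has no bacterial counterpart, had 5.36, 4.80 and 5.34 in low cells, 4.44, 4.44 and 4.21 in medium cells and 4.04, 3.92 and 4.25 in high cells. The low arrays lay above all others, and the medium and high arrays overlapped. It averaged 5.17 ± 0.32 in low and 4.07 ± 0.16 in high cells (SD, n = 3 each), a log2 difference of 1.10 with an SE of 0.17 (limma adjusted p = 0.00658). The probe set was dim: no array reached a log2 value of 6, and the high arrays lay near the median of all probe sets on those arrays (3.93 to 3.99), so no fold is given. Mrpl11, a protein at the base of the stalk where translation factors bind, had 6.86, 6.65 and 6.94 in low cells, 5.96, 6.41 and 6.28 in medium cells and 6.08, 5.58 and 5.56 in high cells. Its low arrays also lay above all others, and its medium arrays overlapped with high replicate 1. The means were 6.82 ± 0.15 in low and 5.74 ± 0.29 in high cells (SD, n = 3 each), a difference of 1.08 with an SE of 0.17, or 2.11-fold (limma adjusted p = 0.00913).

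Mrpl17 and Mrpl23 both sit at the rim of the tunnel through which the new protein leaves the large subunit. Mrpl17 had 8.24, 7.89 and 8.43 in low cells, 7.52, 7.41 and 7.35 in medium cells and 7.74, 6.81 and 6.97 in high cells. The low arrays were again the highest, while high replicate 1 lay above all medium arrays. The means were 8.19 ± 0.27 in low and 7.17 ± 0.50 in high cells (SD, n = 3 each), a difference of 1.02 with an SE of 0.23, or 2.03-fold (limma adjusted p = 0.0375). Mrpl23 had 9.13, 9.10 and 9.38 in low cells, 8.79, 9.06 and 8.47 in medium cells and 8.70, 8.26 and 8.02 in high cells. Its lowest low array was just above its highest medium array, and medium and high overlapped. The means were 9.20 ± 0.15 in low and 8.33 ± 0.35 in high cells (SD, n = 3 each), a difference of 0.88 with an SE of 0.20, or 1.84-fold (limma adjusted p = 0.0374). Mrps27 and Mrpl11 passed in all 9 fits that leave out an array. Mrpl23 did not pass in 6 of these 9 fits, namely without any of the low arrays, medium replicate 1, high replicate 2 or high replicate 3, with limma adjusted p up to 0.115. Mrpl17 passed only without high replicate 1, and its limma adjusted p reached 0.121 in the other 8 fits.

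**Figure D2:**
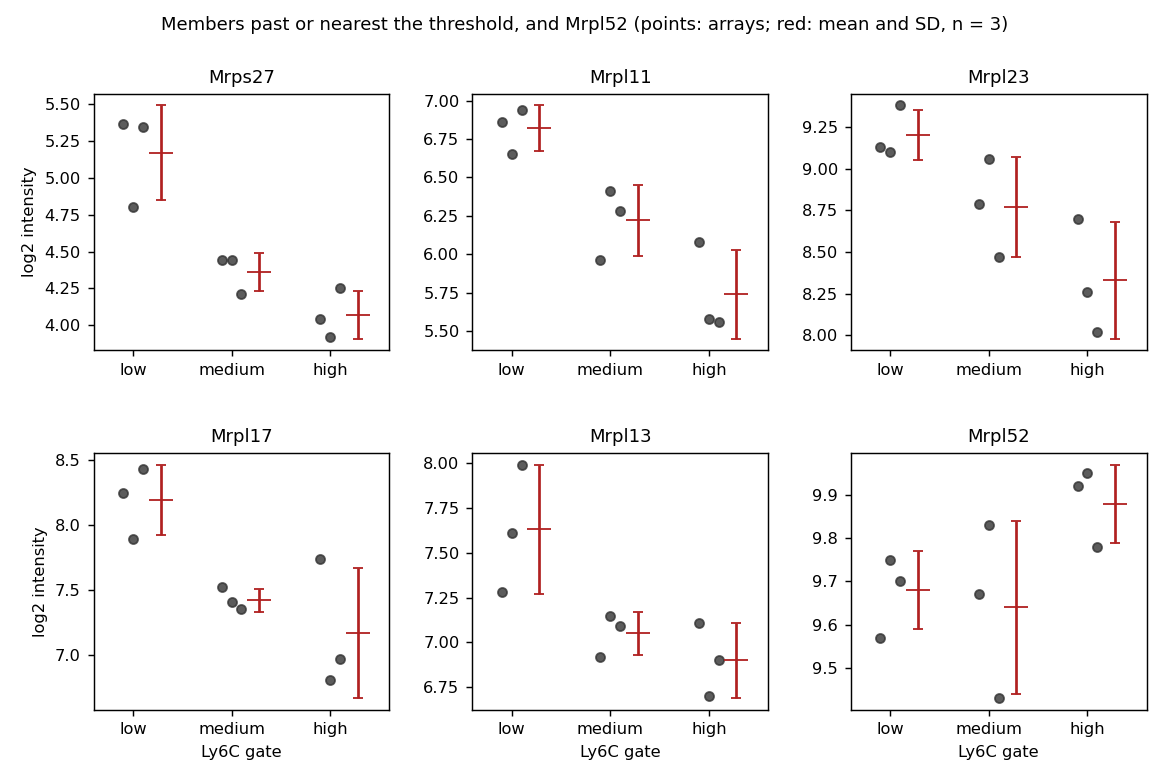
Log2 intensity on each array (points) with the mean and SD of each gate (red, n = 3) for the 4 members past the threshold, the nearest member outside it (Mrpl13) and Mrpl52; each panel has its own vertical scale. In the first 5 panels the low arrays lie above all high arrays, and in the panel of Mrpl52 they lie below them.

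The sequences just upstream of the 4 called members are shown because promoter motifs are compared over all members in the paragraph that follows them. Each is 150 bases of the RefSeq table's GRCm38.p6 promoter window, ending at the base before the annotated start, 5′ to 3′ on the gene's strand, with capitals on matches to the motifs named below. Mrps27 lies at chr13:99344636-99344785 on the plus strand, Mrpl11 at chr19:4962156-4962305 on the plus strand, Mrpl23 at chr7:142532882-142533031 on the plus strand and Mrpl17 at chr7:105811088-105811237 on the minus strand.
Mrps27: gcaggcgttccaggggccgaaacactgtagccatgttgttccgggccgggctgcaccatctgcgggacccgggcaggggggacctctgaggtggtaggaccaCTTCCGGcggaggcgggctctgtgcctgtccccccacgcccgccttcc
Mrpl11: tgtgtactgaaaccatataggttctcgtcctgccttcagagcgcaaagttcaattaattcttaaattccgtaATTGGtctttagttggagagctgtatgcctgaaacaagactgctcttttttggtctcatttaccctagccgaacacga
Mrpl23: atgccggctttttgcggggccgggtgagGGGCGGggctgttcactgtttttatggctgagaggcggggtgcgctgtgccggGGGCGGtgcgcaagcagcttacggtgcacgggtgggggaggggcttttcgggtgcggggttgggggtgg
Mrpl17: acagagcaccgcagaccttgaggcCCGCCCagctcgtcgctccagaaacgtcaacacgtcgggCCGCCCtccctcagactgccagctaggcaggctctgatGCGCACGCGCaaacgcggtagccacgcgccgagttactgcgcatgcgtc
The Mrps27 stretch holds a match to the ETS motif, bound by the GABP factor among others, 48 bases before the start, and the window has a YY1 motif 15 bases after the start. The Mrpl11 stretch holds a CCAAT box 78 bases before the start, and the Mrpl23 stretch 2 SP1 motifs at 122 and 69 bases. The Mrpl17 stretch holds a match to the motif of NRF1, a factor known for nuclear genes of mitochondria, 49 bases before the start, and SP1 motifs at 126 and 87 bases. Further upstream, the Mrpl17 window has an ETS motif at 237 bases that overlaps an SP1 motif at 241 bases.

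Over all members, a promoter window of 300 bases (250 before and 50 after the start) was found for 62 of 71, against 16990 of the genes tested. The ETS motif, searched as CCGGAAG on both strands, was in 37.1% of member windows and 11.6% of windows of genes tested. The NRF1 motif, GCGC then any base then TGCGC, was in 17.7% of member windows and 6.58% of all, and the YY1 motif AAGATGG in 21.0% and 6.52%. Shares were closer for the CCAAT box, searched as CCAAT (38.7% of members and 38.3% of all), the SP1 motif GGGCGG (50.0% and 46.2%) and the E-box CACGTG (8.06% and 8.0%). The TATA motif TATAAA was in 6.45% of member windows and 12.9% of all, and the median GC content was 58.0% in members and 56.3% in all. Among large subunit genes the ETS, NRF1 and YY1 motifs were in 32.4%, 21.6% and 18.9% of windows, and among small subunit genes in 44.0%, 12.0% and 24.0%. These are matches to letters and describe no binding.

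The large subunit genes differed among themselves. At the centre and stalk that bind the translation factors, all 3 members were higher on average in low than in high cells, with differences of 1.08 (Mrpl11), 0.81 (Mrpl12) and 0.28 (Mrpl10). Mrpl12, which in human cells also binds the mitochondrial RNA polymerase, had 6.32, 6.57 and 6.61 in low cells, 6.22, 6.60 and 6.11 in medium cells and 5.83, 6.12 and 5.13 in high cells. The low arrays lay above the high arrays and overlapped with the medium arrays (limma adjusted p = 0.0951 for low against high). Around the peptidyl transferase centre, where the peptide bond is made, the differences of the 5 members split: they were 0.85 for Mrpl16, 0.74 for Mrpl3 and 0.54 for Mrpl2, but -0.09 for Mrpl4 and -0.13 for Mrpl27. The value of Mrpl27 comes from a dim probe set, with a mean of 4.27 over the 9 arrays. Along the exit tunnel the 6 members ranged from 1.02 (Mrpl17) and 0.88 (Mrpl23) through 0.38 (Mrpl22) to 0.09 (Mrpl47), -0.02 (Mrpl45, which holds the ribosome at the inner membrane in mammals) and -0.09 (Mrpl24). The tunnel group thus held 2 of the 3 large subunit genes that were called and a median of 0.24. Mrpl47 and Mrpl45 were dim, with means of 4.48 and 4.61 over the 9 arrays.

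In the central protuberance, which contacts the small subunit, the 6 members assigned to it lay between -0.08 (Mrpl48) and 0.77 (Mrpl55), with a median of 0.38. The other 23 genes of large subunit symbol had a median of 0.45; limma called 0 of them, and 7 were higher at an unadjusted p under 0.05. Mrpl13 was the member nearest to the threshold from outside, with 7.28, 7.61 and 7.99 in low cells, 6.92, 7.15 and 7.09 in medium cells and 7.11, 6.70 and 6.90 in high cells. Its low arrays lay above all others (difference 0.73, limma adjusted p = 0.0532). The most negative differences of all members were those of Mrpl39 (-0.28) and Mrpl52 (-0.21), both found only in mitochondria. Mrpl52 had 9.57, 9.75 and 9.70 in low cells, 9.67, 9.83 and 9.43 in medium cells and 9.92, 9.95 and 9.78 in high cells. Its low arrays lay below its high arrays by a narrow margin, and the difference did not pass (limma adjusted p = 0.447).

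The small subunit genes were closer to each other in direction. In the head of the subunit the 8 members had differences of 0.18 to 0.97 with a median of 0.51, and in the body and platform the 17 members had 0.02 to 1.10 with a median of 0.43. Mrps31, in the head, had 5.75, 5.24 and 6.04 in low cells, 5.02, 5.11 and 4.71 in medium cells and 4.29, 5.56 and 4.26 in high cells. High replicate 2 fell within the low range, and the difference of 0.97, with an SE of 0.34, did not pass (limma adjusted p = 0.161). Mrps12, which lines the decoding centre, had 6.53, 6.38 and 6.88 in low cells, 6.35, 6.30 and 6.35 in medium cells and 6.35, 6.04 and 6.23 in high cells. Its low arrays lay above all others by a small margin (difference 0.39, limma adjusted p = 0.166). Mammals have 3 homologs of the bacterial S18 protein, and their differences were 0.55 (Mrps18a), 0.81 (Mrps18b) and 0.46 (Mrps18c), with limma adjusted p of 0.103, 0.122 and 0.33.

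Some symbols do not name the place of the protein. Mrps18a and Mrps30 are small subunit symbols whose products were found in the large subunit, and Mrps36 is now known as a subunit of the oxoglutarate dehydrogenase complex. Mrps30 had 6.15, 5.98 and 6.40 in low cells, 6.10, 5.66 and 5.80 in medium cells and 5.59, 5.53 and 5.69 in high cells. The low arrays all lay above the high arrays (difference 0.58, limma adjusted p = 0.056). Mrps36 had 4.0, 3.96 and 3.55 in low cells, 3.86, 3.86 and 4.15 in medium cells and 3.80, 3.86 and 3.85 in high cells. The gates overlapped, and its difference rounded to 0.00 and took a negative sign when arrays were centred (-0.03) or quantile normalized again (-0.02). The Mrps36 probe set was dim, with every array near the median of all probe sets (3.93 to 4.10 per array), so it could show little difference. With the genes placed by structure, the median of low minus high was 0.45 over 45 large and 0.46 over 25 small subunit genes. The 45 members with a bacterial homolog had a median of 0.46 and 3 called higher, and the 25 found only in mitochondria a median of 0.405 and 1 called higher.

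**Figure D3:**
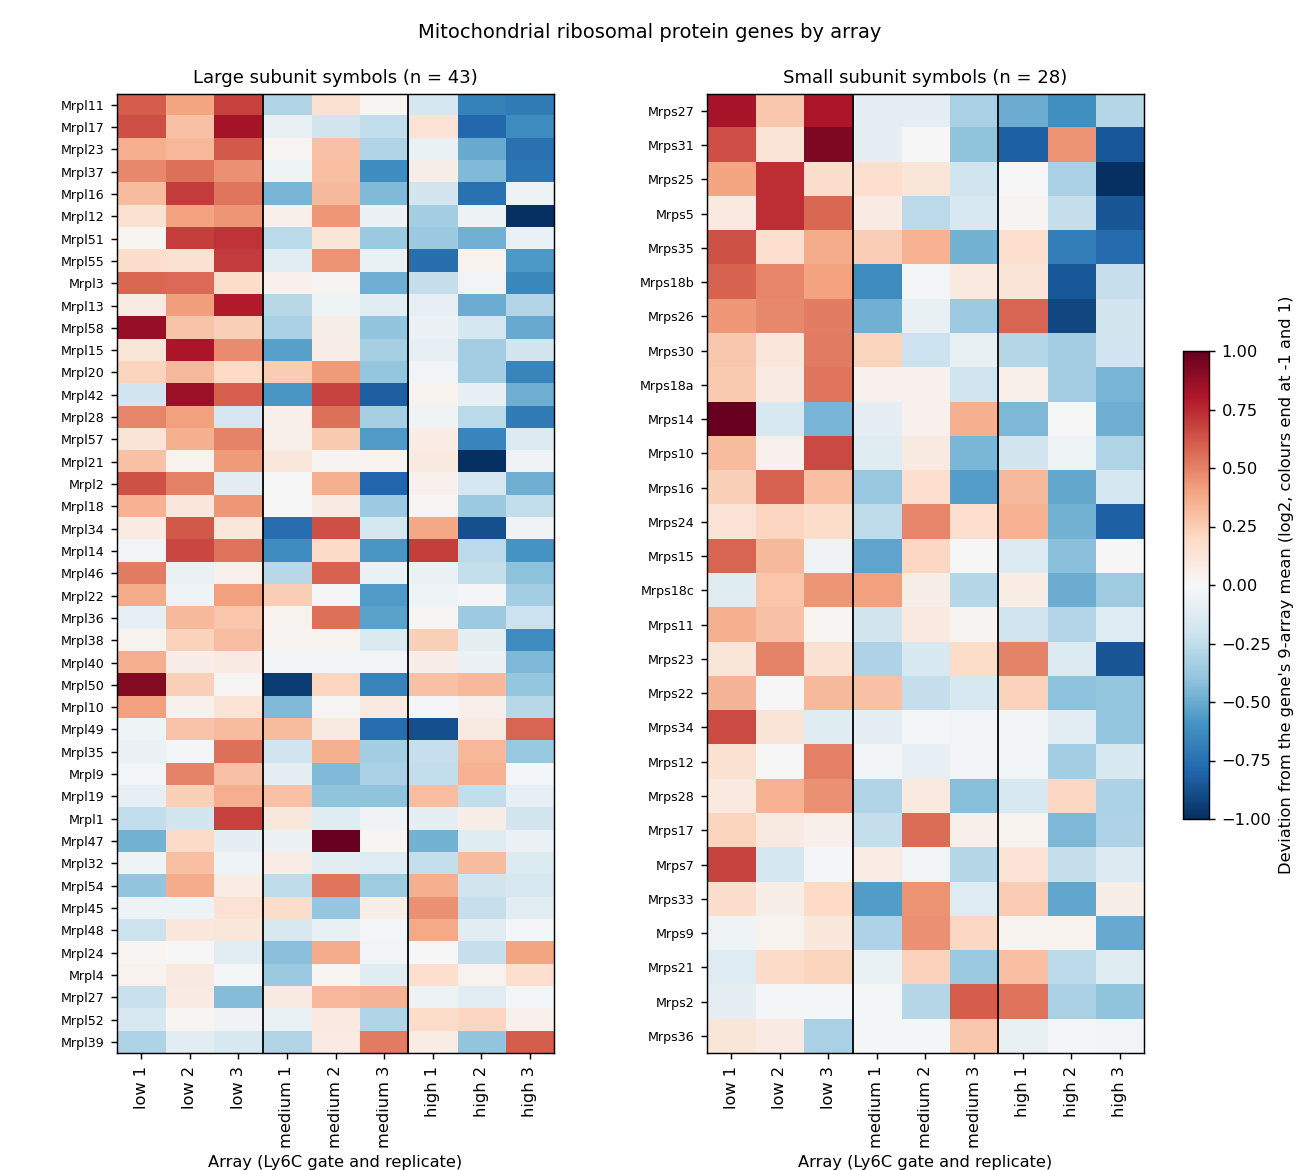
Deviation of each member from its own mean over the 9 arrays (log2, colours end at -1 and 1), with genes ordered by low minus high within each subunit and arrays from Ly6C low through medium to high. The low columns are mostly red for small subunit genes, while at the foot of the large subunit panel Mrpl39 is blue in all 3 low columns.

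Between Ly6C low and medium cells, 1 member passed the test. Mrps27 was higher in low cells by 0.81 (limma adjusted p = 0.0481), which is 1 of 71 against 1.38% of all genes called higher. Of the 9 fits that leave out an array, it passed only in the fit without low replicate 2 (limma adjusted p = 0.0283), and in the other 8 fits the limma adjusted p was up to 0.167. The next smallest p-values were those of Mrpl15 (difference 0.74, limma adjusted p = 0.122), Mrpl11 (0.60, 0.141), Mrpl58 (0.68, 0.146) and Mrpl17 (0.77, 0.159). Mrpl58 is a peptidyl-tRNA hydrolase built into the large subunit, which had 7.29, 6.71 and 6.66 in low cells, 6.10, 6.48 and 6.03 in medium cells and 6.36, 6.25 and 5.92 in high cells. Its low arrays lay above all others, and medium and high arrays overlapped. At an unadjusted p under 0.05, 19 members were higher in low than in medium cells, against 8.54% of all genes, and 1, Mrpl27, was lower, against 5.53%. Mrpl27 was dim, with a mean of 4.27 over the 9 arrays. All low arrays lay above all medium arrays for 21 members (29.6%) against 9.25% of all genes, and all below for 1, again Mrpl27, against 7.58%. Among genes with 3 or more arrays at log2 6 or above, 30.4% of members were higher at an unadjusted p under 0.05, against 17.6%. All low arrays lay above all medium arrays for 34.8% of those members, against 19.2%. Here too, a gene could meet the filter through its low arrays. The difference was positive for 63 of 71 members (88.7%) against 46.1% of all genes. The median difference was 0.31 over all members, 0.31 over large subunit and 0.29 over small subunit genes, against -0.017 over all genes. After repeated quantile normalization the median was 0.19 for both subunits, and without medium replicate 3 it was 0.17 for the large subunit. The 19 members at an unadjusted p under 0.05 became 8 without medium replicate 3, and 12 both without low replicate 2 and after repeated quantile normalization. Of all genes, 6.75%, 7.54% and 7.16% were higher at that level in these fits, in the order named. This comparison uses the same low arrays as low against high.

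Between Ly6C medium and high cells, limma called 0 of 71 members, where 0.239% of all genes were called in either direction. At an unadjusted p under 0.05, Mrpl11 and Mrpl12 were higher and Mrpl4, a protein that lines the tunnel near the peptidyl transferase centre, was lower in medium cells, against 3.72% of all genes higher and 3.81% lower. The 5 smallest p-values belonged to Mrpl11 (difference 0.48), Mrpl12 (0.62), Mrpl4 (-0.28), Mrpl27 (0.31) and Mrpl23 (0.45), with limma adjusted p between 0.534 and 0.665. Mrpl27 had 4.05, 4.35 and 3.84 in low cells, 4.36, 4.60 and 4.61 in medium cells and 4.22, 4.16 and 4.25 in high cells. Its medium arrays lay above all other arrays, the lowest of them (4.36) just above low replicate 2 (4.35). The Mrpl27 probe set was dim: no array reached a log2 value of 6, and its values lay near the median of all probe sets (3.93 to 4.10 per array). Mrpl4 had 7.21, 7.26 and 7.15 in low cells, 6.80, 7.19 and 7.05 in medium cells and 7.34, 7.21 and 7.34 in high cells. Its medium arrays lay below the high arrays, and those 2 genes were the only members whose medium and high arrays did not overlap, against 5.77% of all genes higher and 4.93% lower. The difference was positive for 50 of 71 members (70.4%) against 56.8% of all genes. Its median was 0.13 over all members, 0.080 over large subunit and 0.16 over small subunit genes, against 0.029 over all genes. Over the large subunit genes it was -0.01 without medium replicate 2, 0.22 without medium replicate 3, 0.18 without high replicate 1, 0.05 without high replicate 2 and 0.04 with arrays centred on their median. Over the small subunit genes it was 0.26 without high replicate 1 and 0.10 without high replicate 3. The 2 members higher at an unadjusted p under 0.05 became 0 without medium replicate 2 or high replicate 3 and 10 without high replicate 1. Shares of all genes in those fits were 4.21%, 3.37% and 3.43%, in the order named.

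Over the 3 gates together, the limma F test called 2 of 71 members (2.82%), Mrps27 and Mrpl11, against 4% of all genes. It called 0 without low replicate 1, 1 without low replicate 2, low replicate 3, medium replicate 3 or high replicate 3, and 3 without high replicate 1. By gate means, 43 members (60.6%) had the order low, medium, high from highest to lowest, against 21.4% of all genes and 24.8% of the genes that reached a log2 value of at least 6. A further 16 members (22.5%) had low highest and medium lowest, against 14.1% of all genes. Low was the lowest gate for 3 members, Mrpl24, Mrpl27 and Mrpl39. No member passed the test between medium and high, so the order of those neighbours is a description.

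The median level of all members was 6.60, 6.57 and 6.56 in the low arrays, 6.16, 6.43 and 6.07 in the medium arrays and 6.34, 6.04 and 5.79 in the high arrays. The low arrays were close to each other and above all others, while the medium and high arrays were spread and overlapped. Over the large subunit genes the medians were 6.77, 6.65 and 6.66 in low, 6.21, 6.57 and 6.07 in medium and 6.32, 6.18 and 5.89 in high arrays. Over the small subunit genes they were 6.41, 6.36 and 6.43 in low, 6.03, 6.04 and 5.98 in medium and 6.39, 5.67 and 5.68 in high arrays. High replicate 1 was thus within the low range for the small subunit median, and below it for the large subunit median.

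Single arrays stood out within their gates. Medium replicate 2 gave the highest value of its gate for 45 of the 71 members, and high replicate 1 for 44 of 71. Without high replicate 1, limma called 9 members higher in low than in high cells instead of 4, and without low replicate 2 or high replicate 3 it called 2. The shares of all genes called higher were 2.83%, 1.83% and 1.93% in these fits, in the order named, against 3.35% with all arrays. The fibroblast markers summed to 7088, 4885 and 3144 in high replicates 1, 2 and 3, where the median member levels were 6.34, 6.04 and 5.79. The high array with the largest fibroblast sum thus had the highest member level of its gate; the part of fibroblast RNA in the result was not tested. The neutrophil markers summed to 616, 981 and 2738 in low replicates 1, 2 and 3, to 961, 1196 and 2293 in the medium arrays and to 719, 1037 and 1233 in the high arrays. Low replicate 3 and medium replicate 3 thus stood above the other arrays in these markers, and their part in the result was not tested. The SD within a gate had a median of 0.31 over members, with a range of 0.13 to 0.59, against 0.23 over genes that reached a log2 value of at least 6.

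**Figure D4:**
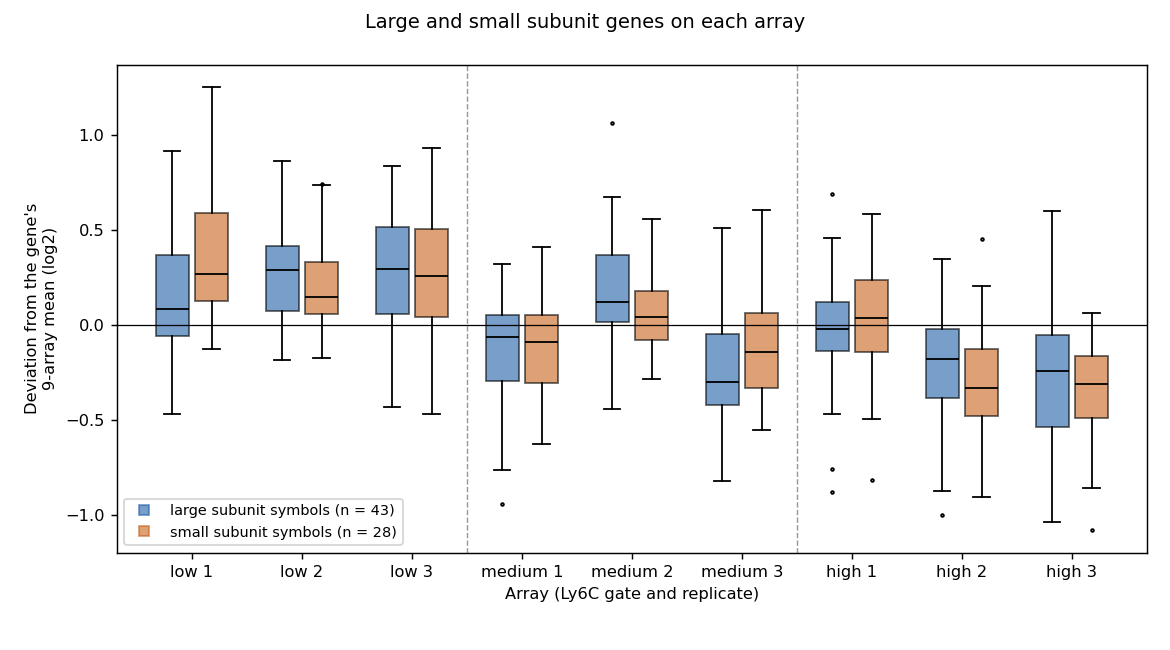
Deviation of large (blue, n = 43) and small (orange, n = 28) subunit genes from their own mean over 9 arrays, as boxes of median and quartiles with whiskers to 1.5 times the quartile range, for each array from Ly6C low to high. The medians of both subunits lie above 0 in all low arrays, near 0 in high replicate 1 and below 0 in high replicates 2 and 3.

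Large and small subunit genes were set against each other array by array. The median deviation of large subunit genes averaged 0.22 ± 0.12 in low, -0.08 ± 0.22 in medium and -0.15 ± 0.11 in high arrays (SD, n = 3 each). For small subunit genes it averaged 0.23 ± 0.07 in low, -0.06 ± 0.10 in medium and -0.20 ± 0.21 in high arrays (SD, n = 3 each). Large minus small, array by array, was -0.18, 0.14 and 0.04 in low, 0.02, 0.08 and -0.17 in medium and -0.06, 0.15 and 0.07 in high arrays. The 3 gates overlapped in this difference.

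For 9 members a further probe set with a single symbol was on the array, and it gave a difference of the same sign between low and high in all 9. The gap between both probe sets of a member was at most 0.60. The other Mrpl12 probe set, of nearly the same mean level, had 6.97, 6.91 and 6.56 in low cells, 6.09, 5.97 and 5.60 in medium cells and 6.06, 5.70 and 5.47 in high cells. Its low arrays lay above all others, and it passed both against high (1.07, limma adjusted p = 0.0146 over all single-symbol probe sets) and against medium (0.93, limma adjusted p = 0.0495). The other Mrps18b probe set gave a difference of 1.41 between low and high (limma adjusted p = 0.0658). With the average over a gene's probe sets as its value, limma called 6 members higher in low than in high cells, the earlier 4 with Mrpl12 and Mrps18b. That fit called 3.37% of all genes higher.

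Genes that work with the mitochondrial ribosome were read from the same fit. Of 27 assembly factors measured, 2 were higher in low than in high cells and 0 lower, with a median of 0.25. They were Rbfa, which helps the small subunit mature (0.92, limma adjusted p = 0.0399), and Eral1, a chaperone of the small subunit RNA (0.87, limma adjusted p = 0.0268). At an unadjusted p under 0.05, 6 assembly factors were higher and 3 lower. Their differences ranged from -0.9 to 0.92 and were positive for 19 of 27. Of 15 translation factors, 2 were higher and 0 lower, Mtrf1, a release factor homolog (0.68, limma adjusted p = 0.0365), and Gfm1, an elongation factor (0.65, limma adjusted p = 0.0398). All 15 translation factors had a positive difference, with a median of 0.435. The 4 measured ribosomal genes outside the symbol pattern had differences of 0.01 to 0.47 with a median of 0.40; limma called 0, and 1 was higher at an unadjusted p under 0.05.

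The 10 measured genes of mitochondrial DNA had 0 called by limma, 2 higher at an unadjusted p under 0.05, and a median of 0.17. Of 22 core subunits of the respiratory chain encoded in the nucleus, 3 were higher in low cells and 0 lower, with a median of 0.38. They were Sdhc (0.73, limma adjusted p = 0.0298), Sdha (0.68, 0.0336) and Atp5a1 (0.66, 0.0364), subunits of complex II and of the ATP synthase. Of 26 genes of protein import, 4 were higher and 0 lower with a median of 0.355, among them Mtx2 of the outer membrane (0.84), the small chaperone Timm10 (0.69) and the matrix chaperone Hspa9 (0.64). Of 19 mitochondrial aminoacyl-tRNA synthetases limma called 0, with 3 higher at an unadjusted p under 0.05 and a median of 0.18. Of 20 genes of mitochondrial DNA maintenance and transcript processing it also called 0, with 3 higher at an unadjusted p under 0.05 and a median of 0.13. The 13 regulators of mitochondrial genes, which include Nrf1, Gabpa and Yy1, had 0 called by limma and 2 lower at an unadjusted p under 0.05, with a median of -0.076. The 56 cytosolic ribosomal protein genes, which serve the other ribosome of the cell, had 0 called by limma, with 3 higher and 1 lower at an unadjusted p under 0.05, and a median of 0.0725. Over all genes, 3.35% were called higher in low than in high cells. Between low and medium cells, limma called 0 of the 56 cytosolic ribosomal protein genes, but 50 of 56 had a positive difference. This share was close to that of the members (63 of 71), against 46.1% of all genes. The median was 0.135 over the cytosolic and 0.31 over the mitochondrial ribosomal protein genes.

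**Figure D5:**
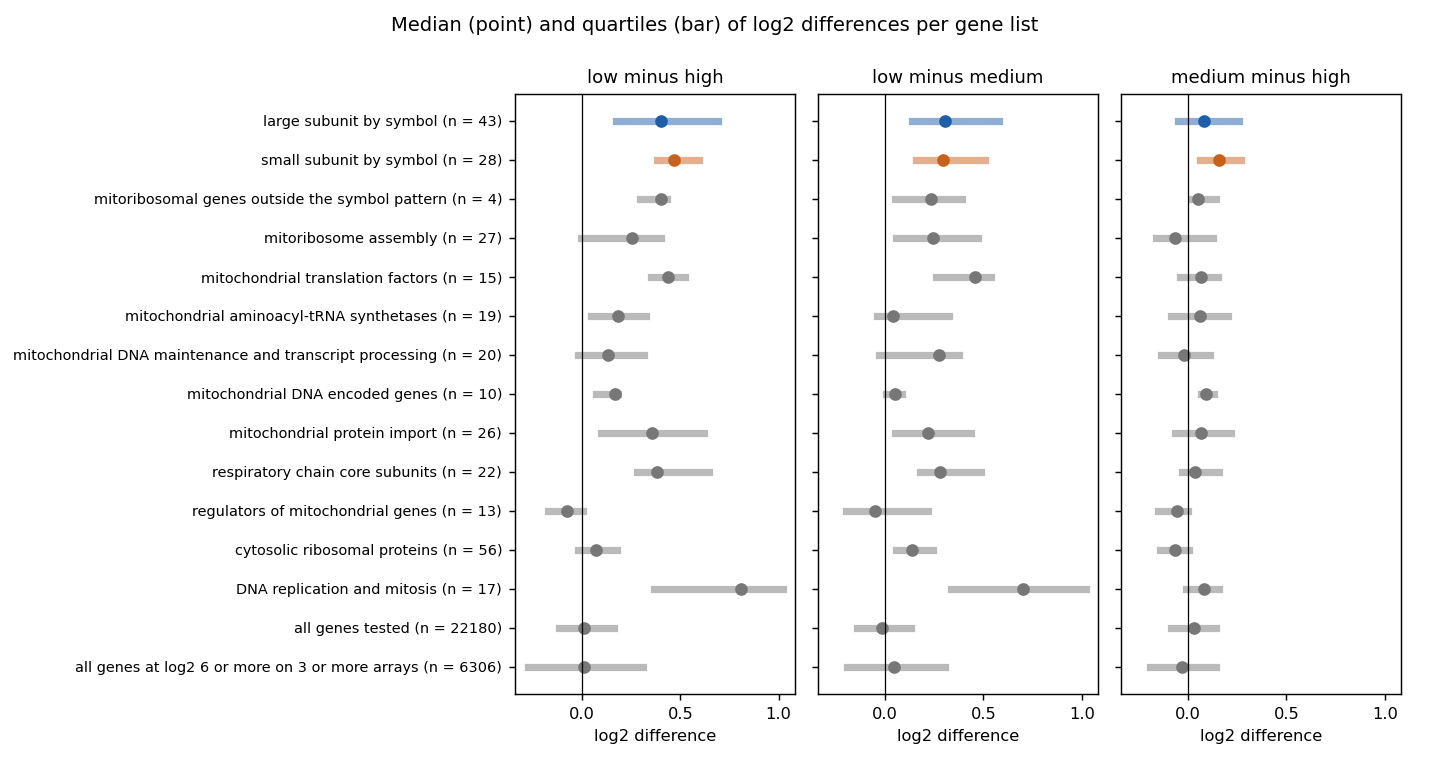
Median (point) and quartiles (bar) of the log2 differences of each gene list for low minus high, low minus medium and medium minus high, with the number of genes measured. Both subunits, the translation factors and the respiratory chain lie right of 0 against both other gates, and the regulators lie near 0. The cytosolic ribosomal proteins lie near 0 except in low minus medium, where their quartiles are 0.0529 and 0.244.

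Of 17 genes of DNA replication and mitosis measured, 3 were higher in low than in high cells and 0 lower, against 3.35% of all genes called higher. The median difference was 0.806, and 13 of the 17 were higher at an unadjusted p under 0.05. Those past the threshold were the replicative helicase subunits Mcm6 (2.00) and Mcm3 (1.58) and the topoisomerase Top2a (1.10). Between low and medium cells 1 of 17, Mcm3, was higher (1.30, limma adjusted p = 0.0106), against 1.38% of all genes. Between medium and high cells limma called 0 of 17, and 0 at an unadjusted p under 0.05. The median level of the 17 genes was 6.33, 6.04 and 5.46 in low arrays, 5.24, 5.40 and 4.83 in medium arrays and 5.39, 5.23 and 5.07 in high arrays. In low replicate 3 these genes were close to the other gates, while the median level of the mitochondrial ribosomal proteins in that array was 6.56, beside 6.60 and 6.57 in the other low arrays. The part of dividing cells in the differences of the mitochondrial ribosomal proteins was not tested.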

How the data were processed

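Myeloid cells of 3 Ly6C gates were measured on 9 Affymetrix arrays. The authors deposited log2 intensities per probe set, made with RMA per the submitters' processing notes; version, settings and genome build are not given in the sources used here. They were used as deposited. Of 41345 probe sets, 23521 had 1 gene symbol, 1814 had several and 16010 were unnamed here; the last 2 kinds were left out. Of the rest, 23328 matched RefSeq by gene identifier. For each of the 22180 genes the brightest probe set was kept. R 4.3.3 and limma 3.58.1 (lmFit, eBayes, two-sided moderated tests) fitted all arrays together leaving 6 residual degrees of freedom; p-values were adjusted by Benjamini-Hochberg over all genes, at a threshold of 0.05, for 3 pairwise comparisons and an F test. The procedure was tested on simulated data. No test compared levels between genes. Statements on the brightness of members, their median levels and the summed markers are descriptions. Places in the ribosome were assigned from general knowledge of its structure. Each member was given a single place, so a group may not hold every protein near that place.

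The members, gene lists, places in the ribosome and motifs were chosen with earlier results of these data known. Named members are those past the threshold, the 5 with the smallest p-values where fewer pass, the nearest outside it, and Mrps18a, Mrps18b, Mrps18c, Mrps30, Mrps36, Mrpl12 and Mrps12; Mrps31, Mrpl39, Mrpl52 and the members named within a place were chosen after their values were seen. Of other lists, up to 3 genes past the threshold between low and high are named. Promoters come from a RefSeq table of GRCm38.p6, and the first window by coordinate was used for genes with several. Replicate numbers were not taken as pairs, since the labels do not say that they pair the samples. Same-numbered arrays deviated together (r over 0.1) in 4 of 9 pairs, with r of -0.017 to 0.309. Between arrays of different numbers r was -0.183 to 0.151. These values do not settle whether the samples were paired. Alternatives were other normalizations, probe set rules, filters on dim genes, priors and array weights, a replicate block, fits of 2 gates, Mrps30 and Mrps18a counted as large subunit, and leaving out each array.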

Additional observations from a re-analysis of the deposited data

How the results depend on the processing

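With genes above the array median on at least 3 arrays limma called 7 of 69 members higher in Ly6C low than in high cells (6.78% of all genes). With genes of a log2 value of at least 6 it called 11 of 46 (11.3%), and in fits of only the 2 gates compared 2 (1.79% of all genes). The filters changed the genes that were fitted and adjusted over, and the fits of 2 gates used fewer arrays. What these contributed to the counts was not tested. Leaving out an array gave 2 to 9, where 1.64% to 3.38% of all genes were called higher. Low against medium gave 0 higher after repeated quantile normalization, with genes of a log2 value of at least 6 (Mrps27 is then not tested), with a trended and robust prior, with array weights and with only 2 gates, and 0 to 1 without an array. Those alternatives called 0.712% to 6.11% of all genes fitted higher, and the fits without an array 0.383% to 1.56%. The F test gave 0 to 3 without an array, with 0 in the fit without low replicate 1. The labels do not say whether replicate numbers pair the samples (r of -0.017 to 0.309 between same-numbered arrays). With the replicate number as a block, 8 members were called for low against high and 2 for low against medium, Mrpl3 and Mrps27. The block fit called 4.02% and 1.83% of all genes higher in these comparisons, against 3.35% and 1.38% in the main fit. Mrps36 changed sign under repeated quantile normalization (-0.02) and centring (-0.03), and lay between -0.08 and 0.15 without an array. The cause of these changes was not tested. Median differences moved by less than the spread between replicates in every alternative that gave a median, those that leave out an array included. That spread is the pooled SD within gates of the arrays' median deviations. A fall of the large subunit median from 0.31 to 0.17 in low minus medium lay within it. Medians were not computed for the trended and robust prior, the replicate block or the fits of 2 gates. Without an array, the medians in low minus high were 0.35 to 0.56 for large and 0.40 to 0.54 for small subunit genes. They were 0.17 to 0.41 and 0.27 to 0.37 in low minus medium, and -0.01 to 0.22 and 0.10 to 0.26 in medium minus high. Mrps27 and Mrpl11 passed for low against high under every alternative in which they were tested. Over the 9 alternatives that keep all arrays, the named members' differences (Mrps27 and Mrpl11 included) kept direction and side of the threshold 173 times, newly passed 10 times, no longer passed 6 times and changed sign 2 times. Over the 9 fits that leave out an array, they kept both 170 times, newly passed 3 times, no longer passed 22 times and changed sign 3 times, all of Mrps36. At an unadjusted p under 0.05, leaving out an array gave 22 to 37 members higher for low against high, 8 to 23 for low against medium and 0 to 10 for medium against high. The shares of all genes were 8.58% to 10.4%, 6.75% to 8.53% and 2.5% to 4.32%. Of all genes called between low and medium, 71.9% were higher in low cells, and 59.9% after repeated quantile normalization. No pseudogene symbol is a member, so leaving these out gave no value. Of the 71 members, 69 exceeded the array median on at least 3 arrays and 46 a log2 value of 6, so dim signal limits what the remaining members can show.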

Other observations

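Markers of other cell types were read from the same fit. The natural killer cell markers, 6 measured, had 2 higher and 0 lower in Ly6C low than in high cells, and summed to 395 to 605 in low, 179 to 234 in medium and 142 to 180 in high arrays. The eosinophil markers, 5 measured, had 2 higher and 0 lower and summed to 127 to 182 in low, 83 to 101 in medium and 64 to 78 in high arrays. The dendritic cell markers summed to 2046 to 2873 in low, 356 to 414 in medium and 219 to 388 in high arrays, and the tissue macrophage markers to 12157 to 14999, 4941 to 7225 and 2869 to 4203. The classical monocyte markers summed to 6236 to 7346 in low, 10938 to 11805 in medium and 14833 to 16320 in high arrays. Of 10 neutrophil markers, 1 (Retnlg) was higher and 2 (Csf3r and Mmp8) were lower in low cells, and they summed to 616 to 2738 in low, 961 to 2293 in medium and 719 to 1233 in high arrays, with the largest sums in low replicate 3 and medium replicate 3. Of 9 keratinocyte markers 1 was higher and 0 lower. Of 10 endothelial markers, 0 were higher and 1 was lower. Limma called 0 of 8 skeletal muscle markers (1 lower at an unadjusted p under 0.05), 0 of 6 T cell markers (1 higher) and 0 of 4 B cell markers (0 at an unadjusted p under 0.05), and their averages were below 6 on the log2 scale in every gate. The part of these cells in the differences of the mitochondrial ribosomal proteins was not tested.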
